A study of Mus musculus with 70 samples.

Results

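The immunity-related GTPases, or IRG proteins, were followed here through 10 mouse genes: Igtp, Irgm1, Irgm2, Iigp1, Tgtp1, Tgtp2, Ifi47, Gm4841, Gm12250 and F830016B08Rik. They were taken by symbol from the deposited table and make up 10 of its 35197 genes. All 10 passed the filter on low counts that left 16147 genes for testing. RNA was sequenced from 8 mouse cancer cell lines in 70 libraries. Each line was exposed to interferon gamma (IFNg, 100 ng per mL), to interferon beta (IFNb, 1000 activity units per mL), each for 48 hours, or to neither (NS). Melanoma was represented by B16.1 and YUMMER1.7, colorectal cancer by CT26.2 and MC38.7, pancreatic cancer by KPC.2 with Panc02.3, and lung and renal cancer by LLC and Renca. All libraries held cultured cells without a host. CT26.2 and Renca have a BALB/c background and the other 6 lines a C57BL/6 background. Each of the 24 groups had 3 libraries, except 2 groups of 2 (LLC with IFNg, Renca without cytokine). Since the labels do not say that replicates came from separate cultures, p-values cover the spread between these libraries only, which may be technical.

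IRG proteins are large interferon-induced GTPases of cell-autonomous immunity. In mouse cells the GKS class, which has lysine in the nucleotide-binding motif, loads onto the vacuoles of Toxoplasma gondii and Chlamydia trachomatis and breaks them. The GMS class, with methionine in that place, sits on the cell's own membranes and holds the GKS proteins in an inactive state. The GMS regulators in this set are Igtp (also called Irgm3), found on the endoplasmic reticulum and lipid droplets, Irgm1, found on the Golgi and lysosomes, and Irgm2, found on the Golgi. Of the GKS effectors, Iigp1 (Irga6) and Tgtp1 and Tgtp2 (Irgb6) load early onto parasite vacuoles, Ifi47 is also known as Irgd, and Gm12250 encodes Irgb10, which acts with guanylate-binding proteins on bacterial membranes. Gm4841 and F830016B08Rik carry the synonyms Ifgga3 and Ifgga4 in the RefSeq gene table. IFNg acts on its target genes mainly through promoter elements called GAS, and IFNb mainly through elements called ISREs.

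The genes lay on 2 chromosomes of GRCm38. On chromosome 11, in the GENCODE annotation, were Irgm1 (chr11:48861968-48871683, minus strand), Tgtp1 (chr11:48985327-48994172, minus), Tgtp2 (chr11:49057194-49064206, minus) and Ifi47 (chr11:49076587-49096974, plus). Further along were Gm12250 (chr11:58187739-58189012, plus), Igtp (chr11:58199556-58207591, plus) and Irgm2 (chr11:58199618-58222782, plus), the last overlapping Igtp. On chromosome 18 were Gm4841 (chr18:60268305-60273272, minus), F830016B08Rik (chr18:60293380-60303016, plus) and Iigp1 (chr18:60376027-60392634, plus). GENCODE calls Gm12250 a processed pseudogene, whereas RefSeq lists it as protein coding with a start upstream of the GENCODE one.

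Tgtp1 and Tgtp2 are near-identical copies. Of all 31-base words in its transcripts, Tgtp1 shared 83.2% with Tgtp2 and held 15.6% found in no other gene, and Tgtp2 shared 89.2% with Tgtp1 and held 9.46% of its own. Igtp shared 15.9% of its words with Irgm2, and Irgm2 shared 9.16% with Igtp. The remaining 6 genes held between 79.6% (Gm4841) and 100% (Gm12250) unique words. Values of Tgtp1 and Tgtp2 taken singly are therefore uncertain, since pseudoalignment can divide shared reads between them, and so to a smaller extent are those of Igtp and Irgm2, which overlap on the same strand. Gm12185, an IRG gene outside this set, also overlaps Tgtp1 on the same strand. Tgtp1 shared 7.22% of its words with Gm12185, and Tgtp2 shared 7.81%.

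Start-proximal sequences of the 7 members with a RefSeq promoter entry were scanned for interferon elements. Of these, 5 are given because they hold both a GAS core and an ISRE core close to the start. Each is the 100 bases before the RefSeq start on GRCm38.p6, read along the gene's strand, in lower case with motif matches in capitals. The GENCODE starts of Irgm2 (chr11:58199618) and Tgtp1 (chr11:48994172) lie upstream of the stretches shown. The GAS core is TTC, any 3 bases and GAA, which reads alike on both strands, and the ISRE core is GAAA, any 2 bases and GAAA, on either strand. Coordinates are chr11:58199456-58199555 (plus) for Igtp, chr11:58214877-58214976 (plus) for Irgm2, chr11:48992247-48992346 (minus) for Tgtp1, chr11:49064213-49064312 (minus) for Tgtp2 and chr11:58183743-58183842 (plus) for Gm12250.
Igtp: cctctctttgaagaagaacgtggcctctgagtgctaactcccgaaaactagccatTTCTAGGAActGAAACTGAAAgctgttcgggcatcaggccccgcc
Irgm2: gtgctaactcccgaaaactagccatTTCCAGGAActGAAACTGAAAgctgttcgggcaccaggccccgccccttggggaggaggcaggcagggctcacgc
Tgtp1: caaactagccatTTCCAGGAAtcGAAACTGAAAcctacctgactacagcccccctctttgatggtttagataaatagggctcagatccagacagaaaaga
Tgtp2: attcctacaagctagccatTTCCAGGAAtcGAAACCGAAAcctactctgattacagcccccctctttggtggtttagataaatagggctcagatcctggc
Gm12250: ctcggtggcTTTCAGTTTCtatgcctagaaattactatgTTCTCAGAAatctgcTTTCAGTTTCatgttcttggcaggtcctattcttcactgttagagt

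In Igtp, Irgm2, Tgtp1 and Tgtp2 the GAS core stood directly before the ISRE core, with 2 bases between them. The GAS core began 45 bases before the start in Igtp, 75 in Irgm2, 88 in Tgtp1 and 81 in Tgtp2. In Gm12250 it lay between ISRE cores that began 91 and 46 bases before the start and read on the reverse strand. Over all 32851 RefSeq promoters of the same length (250 bases before to 50 after the start), 3.44% held the ISRE core, 8.3% the GAS core and 0.454% both. The joined arrangement was written down after these sequences were seen. It occurred in 5 promoters, 0.0152% of the total, which were the 4 above and that of Gm12185, another IRG gene. The GENCODE start of Gm12185 (chr11:48992226, minus) lies just downstream of the Tgtp1 stretch shown. The promoters of Gm12185 and Tgtp1 may therefore hold the same site, counted once for each gene, which was not checked. Irgm1 differed, with overlapping ISRE cores and no GAS core in its window. The GENCODE start of Irgm1, at chr11:48871683, lies upstream of that window. Sequence before the GENCODE start was not scanned, so a GAS core there would have been missed. The stretch that holds them, chr11:48871427-48871456 (minus), is shown to set them beside the GAS-bearing promoters.
Irgm1: tttcaaGAAATAGAAACCGAAActgattct

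Ifi47 had neither motif in its window. Of the 10 genes, 7 matched the RefSeq promoter table, and Iigp1, Gm4841 and F830016B08Rik had no entry. The longest run of identical bases within the 250 bases before the start was 55 between Igtp and Irgm2, and 27 between Tgtp1 and Tgtp2.

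**Figure D1:**
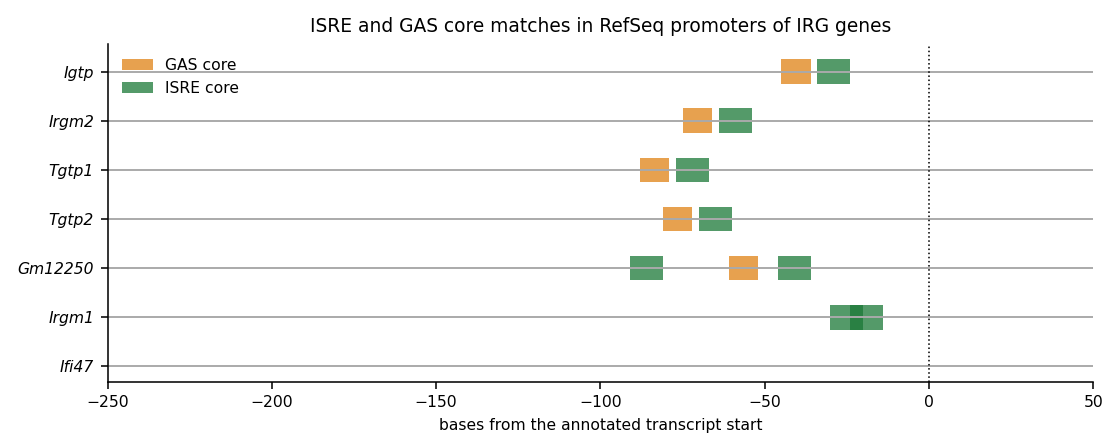
Positions of GAS cores and ISRE cores relative to the RefSeq start of the 7 genes with a promoter entry, in bases. Igtp, Irgm2, Tgtp1 and Tgtp2 show a GAS core next to an ISRE core, Irgm1 shows ISRE cores without a GAS core, and Ifi47 shows neither.

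Total counts ran from 668355 to 28550816 per library with a median of 8644887, so that 3 counts over a group corresponded to 0.0389 to 0.335 CPM. The smallest library was KPC.2 with IFNb, replicate 3. CPM, the count scaled to a common library size after TMM normalization, is the unit of all levels here. Melanocyte markers summed to between 9120 and 9590 CPM in B16.1 with IFNg, between 12600 and 13000 with IFNb and between 20000 and 20400 in unstimulated B16.1. In unstimulated YUMMER1.7 they reached 18.7 to 25.5 CPM, most of it Mitf, with 2 of 7 at 0, so the melanoma label of that line had little marker support. Lung markers in LLC summed to at most 0.168 CPM and intestinal markers to at most 0.469 CPM in MC38.7 and 2.61 CPM in CT26.2, so these tissue labels had no marker support either. Unstimulated KPC.2 had 160 to 177 CPM of pancreatic markers and 514 to 584 CPM of intestinal markers, mostly Cdh17, and unstimulated Panc02.3 had 216 to 298 and 147 to 158 CPM. Kidney markers in unstimulated Renca summed to 673 to 723 CPM. The 8 leukocyte and endothelial markers summed to between 2.2 and 54.3 CPM over all groups. In bulk RNA, fewer cells expressing a gene and less RNA of it per cell cannot be told apart.

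Unstimulated cells differed widely in how much IRG RNA they held. The 10 genes summed to 8.74 ± 1.82 CPM in B16.1, 17.0 ± 0.383 in MC38.7, 18.4 ± 1.35 in LLC, 66.9 ± 8.0 in KPC.2, 87.95 ± 12.2 in Panc02.3, 139.2 ± 17.7 in Renca and 322.2 ± 9.96 in CT26.2. YUMMER1.7 stood above all of these at 1275 ± 163 CPM (SD, n = 3 each, 2 for Renca). Irgm1 held the largest part of this per length of transcript in 7 lines, and Igtp did in Renca, with libraries that overlapped those of the second gene in YUMMER1.7 and Renca. All 10 genes differed between unstimulated lines in an F test, beside 96.5% of all genes tested, so the count says little of this family. Several members were near 0. Iigp1, Tgtp1 and Tgtp2 had 0 counts in all 3 unstimulated B16.1 libraries, as did Gm12250 in LLC and Tgtp2 in MC38.7. Fold changes against such groups are given as lower bounds, taken against 3 counts over the group.

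**Figure D2:**
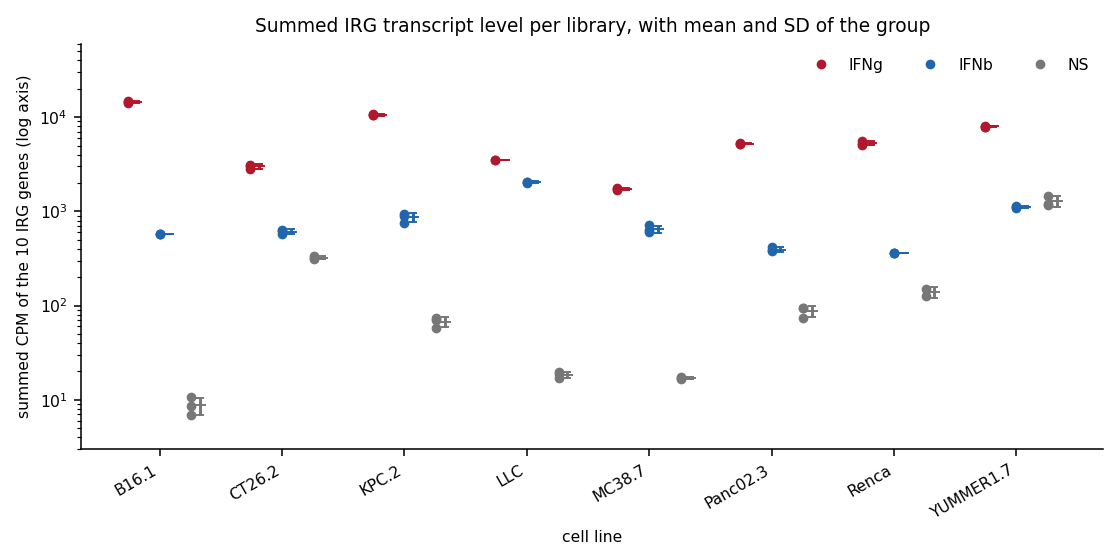
Summed level of the 10 IRG genes in CPM (log axis) by line, with IFNg, IFNb and NS from left to right, a point for each library and the mean with its SD beside the points. IFNg libraries lie above IFNb and NS libraries in every line, and unstimulated YUMMER1.7 at 1275 CPM lies above its IFNb libraries on average.

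With IFNg, every IRG gene rose in every line. All 10 were called higher against NS in each of the 8 lines by edgeR's quasi-likelihood test at an adjusted p under 0.05. The share of all genes called higher was 27.6% in B16.1, 4.97% in CT26.2, 13.8% in KPC.2, 6.65% in LLC, 3.89% in MC38.7, 23.2% in Panc02.3, 6.04% in Renca and 9.79% in YUMMER1.7. For the equally weighted average of the lines it was 18.3%. In all 80 combinations of gene and line, the lowest IFNg library lay above the highest NS library. Such separation held for 30.1% of all genes in B16.1, 9.08% in CT26.2, 18.7% in KPC.2, 22.5% in LLC, 17.2% in MC38.7, 22.8% in Panc02.3, 13.8% in Renca and 15.5% in YUMMER1.7. The summed level with IFNg reached 14370 ± 355.5 CPM in B16.1, 10660 ± 242 in KPC.2, 7995 ± 102 in YUMMER1.7, 5284 ± 262 in Renca, 5235 ± 52.8 in Panc02.3, 3517 ± 16 in LLC, 3001 ± 155 in CT26.2 and 1730 ± 34.2 in MC38.7 (SD, n = 3, 2 for LLC). In B16.1 the 10 genes then made up 1.42% of all counts.

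Among the regulators, Igtp moved furthest. It stood at 2805, 2834 and 2843 CPM in B16.1 with IFNg, against 0.499, 0 and 0.625 CPM in unstimulated B16.1, a log2 difference of 12.78 ± 0.14 (SE, adjusted p = 5.9e-58). The same gene stood at 1546, 1598 and 1579 CPM in YUMMER1.7 with IFNg, against 189, 158 and 151 CPM without cytokine (3.25 ± 0.07). The groups are far apart in both lines, and the levels with IFNg differ much less between lines than the levels without it. On the mean of the 8 lines Igtp rose by 7.41 ± 0.04 on the log2 scale. Irgm2 had 1089, 972 and 907 CPM in B16.1 with IFNg, against 0.249, 0.493 and 1.15 CPM without, and rose by 5.87 ± 0.05 on the mean of lines. Irgm1, whose loss in mice impairs defence against mycobacteria, rose least of the regulators. It had 2093, 2050 and 1982 CPM in B16.1 with IFNg, against 4.86, 6.41 and 6.77 CPM in unstimulated B16.1, and rose by 4.32 ± 0.03 on the mean of lines.

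Among the effectors, the rise began from almost nothing in most lines. Tgtp1 reached 4820, 4790 and 4679 CPM in B16.1 with IFNg, against 0 counts in the 3 unstimulated libraries. That is at least 40900-fold higher. Iigp1 in the same line had 1420, 1359 and 1239 CPM with IFNg against 0 counts without it, at least 11500-fold higher. In KPC.2 Iigp1 was more abundant still, with 2816, 2983 and 2787 CPM under IFNg, against 3.198, 2.41 and 4.22 CPM without (9.82 ± 0.15, adjusted p = 1.6e-49). Tgtp2 in B16.1 was at least 7910-fold higher with IFNg. Gm12250 stood at 85.76 and 86.03 CPM in LLC with IFNg against 0 counts in 3 unstimulated libraries, at least 1380-fold higher. Ifi47 had 727, 732 and 721 CPM in B16.1 with IFNg, against 0.997, 1.23 and 1.98 CPM without, and rose by 5.46 ± 0.05 on the mean of lines.

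Gm4841 and F830016B08Rik, the chromosome neighbours of Iigp1, reached at most 3.37 CPM (F830016B08Rik in CT26.2) in any unstimulated library outside YUMMER1.7. With IFNg, Gm4841 ranged from 36.9 CPM in an LLC library to 353 CPM in a KPC.2 library. It had 261, 259 and 245 CPM in B16.1 with IFNg, against 0.125, 0.123 and 0 CPM in unstimulated B16.1, where the group held 2 counts in all (ratio 3280, 95% interval 907 to 27100 for counting error only). F830016B08Rik ranged more widely between lines. It had 268, 279 and 333 CPM in KPC.2 with IFNg, against 1.95, 0.142 and 1.88 CPM without. In Panc02.3, the other pancreatic line, it had 5.69, 9.37 and 5.15 CPM with IFNg, against 0.119, 0.496 and 0.332 CPM without (4.40 ± 0.60, adjusted p = 4.7e-09).

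**Figure D3:**
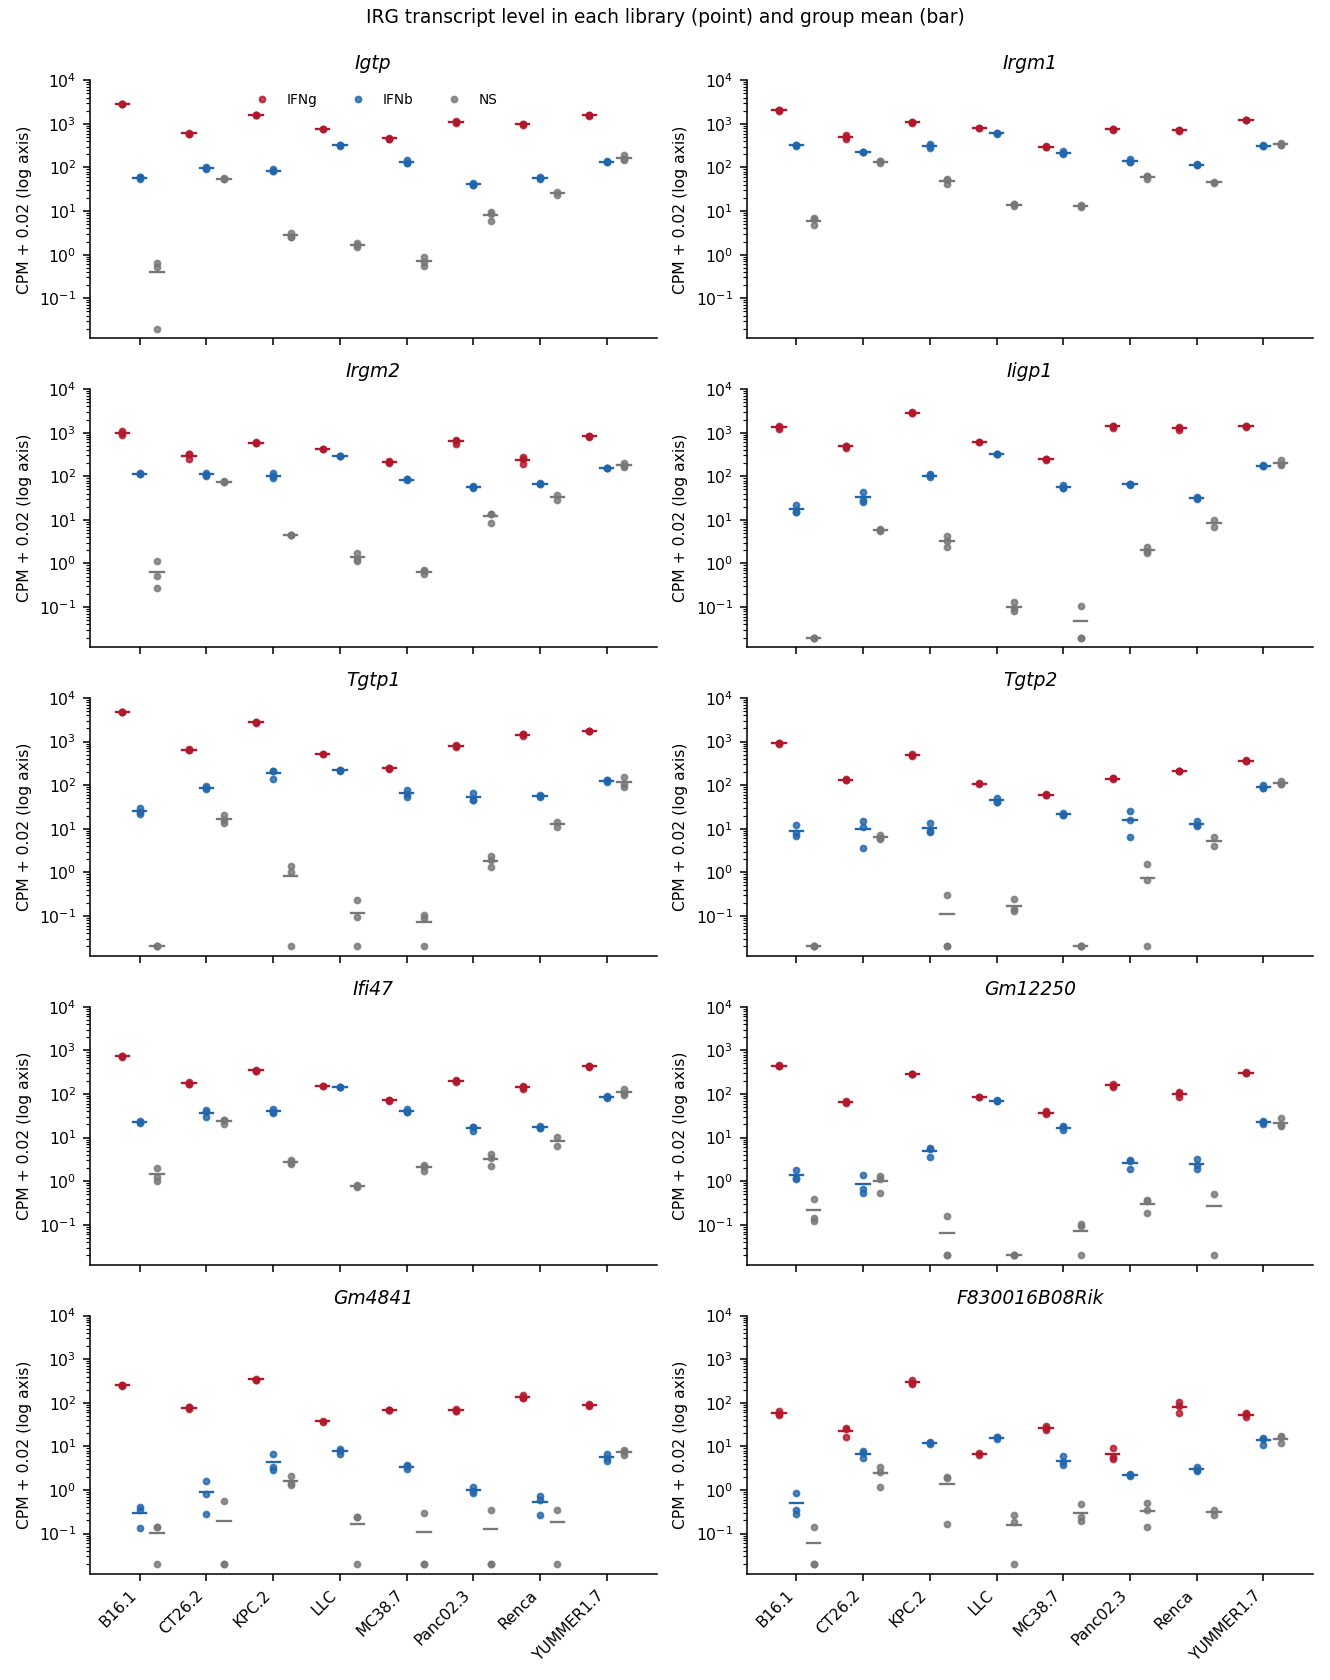
CPM of each of the 10 IRG genes (log axis, with a small constant added so that 0 can be drawn) by line, with IFNg, IFNb and NS from left to right a point for each library and a bar at the mean. With IFNg all points lie above the NS points, while IFNb points range from NS level in YUMMER1.7 to near IFNg level in LLC.

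The size of the IFNg rise differed between lines for all 10 genes (F test, 69.2% of all genes called). The median log2 difference of the members, with groups near 0 set to their bound, was 11.09 in B16.1, 9.11 in MC38.7, 8.56 in LLC, 8.52 in KPC.2, 7.46 in Panc02.3, 6.04 in Renca, 3.91 in CT26.2 and 2.49 in YUMMER1.7. The median over all genes lay between -0.07 and 0.02 in these lines. Against the mean of the other 7 lines, the rise was called lower for all 10 genes in YUMMER1.7 (7.23% of all genes called lower). It was called lower for 9 of 10 in CT26.2 (7.17%) and 7 of 10 in Renca (7.97%). In B16.1 it was called higher for 8 of 10 (23.9%), and 6 to 7 departed with a replicate left out. Tgtp2 and Gm12250 were fitted higher in B16.1 too (8.615 and 2.33), without a call and with SEs far larger than the difference. Igtp departed by -4.76 ± 0.09 on the log2 scale in YUMMER1.7 (adjusted p = 9.3e-45) and by 6.14 ± 0.22 in B16.1. These departures are differences of fold changes, and unstimulated levels enter them directly. YUMMER1.7, with the smallest rise, had the third highest summed level with IFNg. Across the 8 lines the log2 summed levels with IFNg and without cytokine had a Pearson r of 0.0427, as a description. In B16.1 the leukocyte and endothelial markers summed to 15.9 to 18.2 CPM with IFNg, mostly Cd68, against 2.96 to 4.36 CPM without, and melanocyte markers were lower with IFNg. The part of either in the B16.1 values was not tested.

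**Figure D4:**
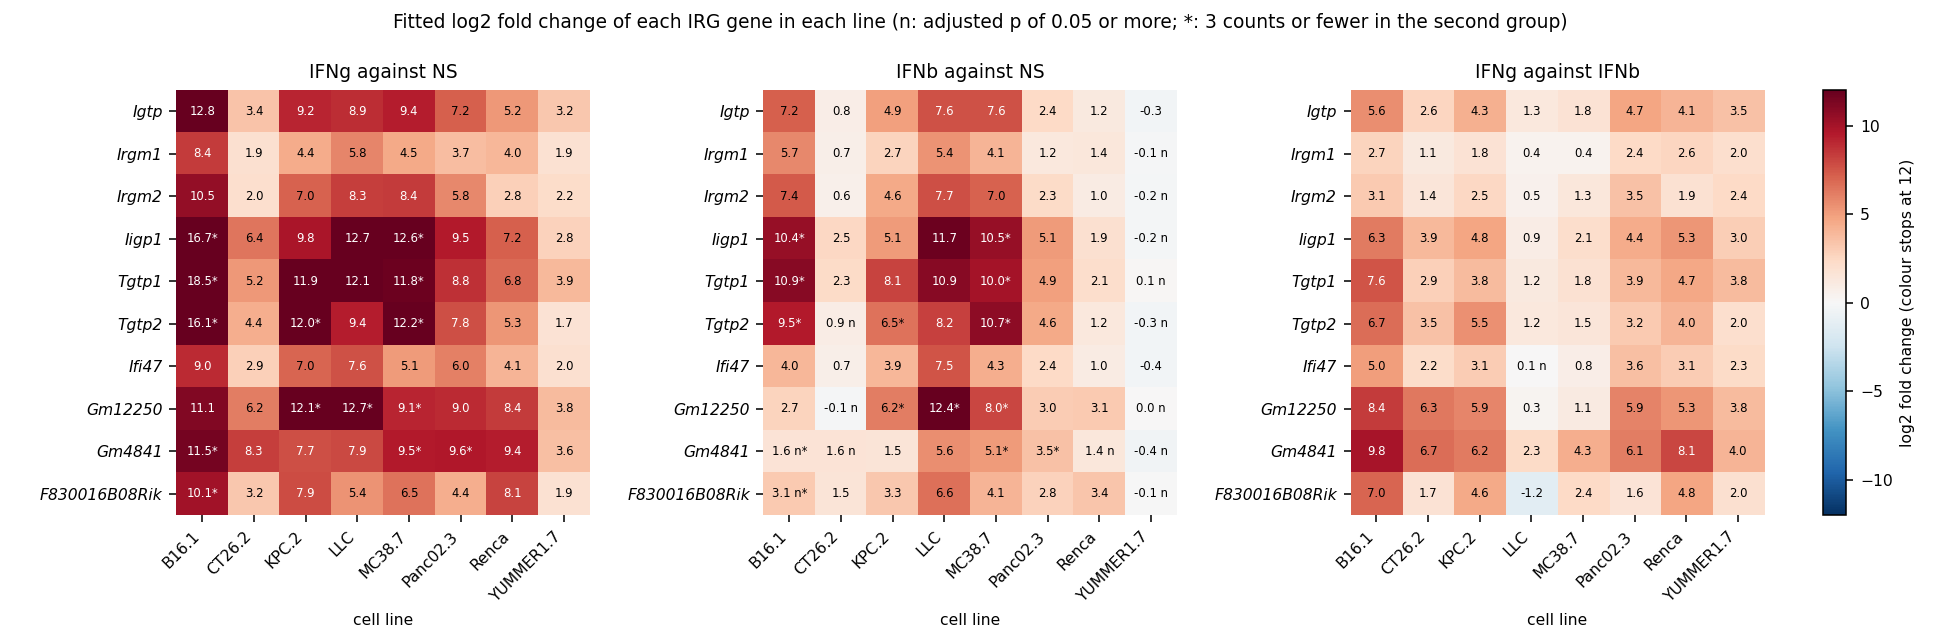
Fitted log2 differences of the 10 IRG genes (rows) in each line (columns) for IFNg against NS, IFNb against NS and IFNg against IFNb, on a shared colour scale that stops at 12. An n marks differences that did not pass and an asterisk a second group of 3 or fewer counts. The YUMMER1.7 column for IFNb against NS is near 0, and in the panel for IFNg against IFNb the only negative cell that was called is F830016B08Rik in LLC.

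IFNb raised the family in 7 lines, less than IFNg did in most of them. It raised all 10 genes in LLC (17.6% of all genes called higher), MC38.7 (13.8%), KPC.2 (2.52%) and Panc02.3 (3.33%). Some of these calls were lost under alternatives. Gm4841 in KPC.2 did not pass in limma-voom (adjusted p = 0.11) or without replicate 1 (0.37). In Panc02.3, Gm4841 did not pass without replicate 3 (0.11), nor F830016B08Rik without replicate 1 (0.1) or 3 (0.051), which left as few as 8 members. IFNb raised 9 in Renca (7.1%), 8 in B16.1 (14.6%) and 7 in CT26.2 (1.97%). In YUMMER1.7 it raised none (0.384%) and 2 genes fell (0.972%). On the mean of the 8 lines all 10 were higher (13.0%). The difference varied between lines for all 10 genes in the F test (48.2%).

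The regulators rose in each of the 7 responding lines. Igtp had 322, 316 and 323 CPM in LLC with IFNb, against 1.68, 1.46 and 1.80 CPM without (7.60 ± 0.11 on the log2 scale). In Renca it had 61.4, 53.4 and 58.4 CPM with IFNb, against 27.3 and 23.97 CPM without (1.17 ± 0.09). The groups do not overlap in either line. Irgm1 had 317, 324 and 330 CPM in B16.1 with IFNb, against 4.86, 6.41 and 6.77 CPM without (5.74 ± 0.10). In MC38.7 it had 215, 240 and 205 CPM with IFNb, against 13.1, 12.4 and 13.9 CPM without (4.07 ± 0.08). On the mean of the 8 lines IFNb raised Igtp by 3.93 ± 0.04, Irgm2 by 3.79 ± 0.06 and Irgm1 by 2.64 ± 0.03.

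Of the effectors, Iigp1, Tgtp1 and Ifi47 were likewise called higher in all 7 responding lines. Tgtp2, Gm12250, Gm4841 and F830016B08Rik each missed a call somewhere among them. Iigp1 averaged 328.0 CPM in LLC with IFNb, against 0.081 CPM without, and 17.6 CPM in B16.1, against 0 counts without. Tgtp1 averaged 219.3 CPM in LLC with IFNb, against 0.097 CPM without. In LLC, Gm12250 reached 70.8, 67.2 and 67.5 CPM with IFNb against 0 counts without, at least 1100-fold higher. In B16.1 the same gene had 1.11, 1.19 and 1.79 CPM with IFNb, against 0.125, 0.370 and 0.104 CPM without (2.69 ± 0.66, adjusted p = 0.001). Its IFNb level is thus low in B16.1 and high in LLC. In CT26.2 it had 0.628, 1.34 and 0.526 CPM with IFNb, against 0.526, 1.12 and 1.27 CPM without, overlapping groups (-0.10 ± 0.68, adjusted p = 1). Gm4841 hardly registered with IFNb in several lines. In B16.1 it had 0.111, 0.397 and 0.326 CPM, against 0.125, 0.123 and 0 CPM without (adjusted p = 0.32), and 6 counts in the 3 libraries together. The other members that did not pass in the 7 responding lines were F830016B08Rik in B16.1 (adjusted p = 0.13), Tgtp2 and Gm4841 in CT26.2 (0.2 and 0.49) and Gm4841 in Renca (0.29). F830016B08Rik in B16.1 passed in DESeq2 (0.025), without the filter (0.015) and with lines fitted alone (0.02), and Tgtp2 in CT26.2 passed without the filter (1.3e-04) and without replicate 3 (0.025). Ifi47 rose by 2.94 ± 0.06 on the mean of lines. It ranged from 0.73 ± 0.13 in CT26.2 to 7.54 ± 0.14 in LLC among the 7 lines in which it rose.

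CT26.2 had the smallest rise of the 7 lines, with a median of 0.86 over the members against 0.00 over all genes. Irgm1 had 230, 223 and 225 CPM with IFNb, against 138, 139 and 129 CPM without (0.74 ± 0.07). Igtp had 102, 97.9 and 92.0 CPM with IFNb, against 54.6, 58.4 and 53.5 CPM without (0.83 ± 0.09). Both genes were separate between groups and changed less than in the other 6 responding lines. The effectors Iigp1 and Tgtp1 rose more in CT26.2, again with separate groups. They averaged 32.75 and 87.8 CPM with IFNb, against 5.78 and 16.9 CPM without. The median log2 difference in CT26.2 was 0.742 over the 3 regulators and 1.53 over the 7 effectors. The count of 7 called members in CT26.2 ran from 4 to 8 when 1 replicate was left out. Irgm2 (0.57, adjusted p = 7.3e-04) and Ifi47 did not pass without replicate 1 (adjusted p = 0.061 and 0.068). F830016B08Rik (1.53 ± 0.42, adjusted p = 0.028) did not pass without replicate 1 (0.33), without replicate 2 (0.14) or in limma-voom (0.22).

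In YUMMER1.7 the family was already high and did not rise with IFNb. Igtp had 133, 139 and 131 CPM with IFNb, against 189, 158 and 151 CPM without, a fall of 0.30 ± 0.07 on the log2 scale (edgeR adjusted p = 0.009). Ifi47 had 88.8, 83.8 and 82.7 CPM with IFNb, against 129, 104 and 96.0 CPM without, and fell by 0.37 ± 0.08 (adjusted p = 0.007). The groups do not overlap for either gene, but the highest unstimulated library stands apart from the other two. Neither call held in every fit with a replicate left out. Igtp did not pass without replicate 1, 2 or 3 (-0.16, -0.34 and -0.35, adjusted p = 0.52, 0.072 and 0.1), nor did Ifi47 without replicate 1 or 2 (-0.23 and -0.37, adjusted p = 0.39 and 0.16). Tgtp2 was not called (-0.33), but passed as lower in edgeR without the filter (-0.32, adjusted p = 0.0054) and with lines fitted alone (-0.32, adjusted p = 0.018). Irgm1 had 303, 321 and 305 CPM with IFNb, against 366, 329 and 331 CPM without (-0.14 ± 0.07, adjusted p = 0.41). Tgtp1 had 130, 132 and 117 CPM with IFNb, against 154, 105 and 92.7 CPM without, with overlapping groups (0.11 ± 0.12, adjusted p = 0.85). Against the mean of the other 7 lines, all 10 IFNb differences were lower in YUMMER1.7 (3.77% of all genes called lower), with Igtp at -4.83 ± 0.09 (adjusted p = 1.7e-44) and Irgm1 at -3.18 ± 0.08. IFNg raised all 10 in the same line, by between 1.69 ± 0.13 (Tgtp2) and 3.88 ± 0.13 (Tgtp1). In LLC 7 of 10 IFNb differences were called above the mean of the other lines (11.3%). Igtp was 4.20 ± 0.21 and Ifi47 5.25 ± 0.19 higher, and 4 of 10 were called without replicate 1. Iigp1, Tgtp1 and Tgtp2 were fitted higher in LLC too (6.71, 5.38 and 3.44) but were not called. Their SE was missing or far larger than the difference, with groups near 0. Such IFNb departures were not particular to YUMMER1.7 and LLC. Igtp was also called lower in CT26.2 (-3.54 ± 0.11), Renca (-3.15 ± 0.12) and Panc02.3 (-1.73 ± 0.14). It was called higher in MC38.7 (4.20 ± 0.23), B16.1 (3.73 ± 0.27) and KPC.2 (1.13 ± 0.20). Leukocyte and endothelial markers summed to 23.9 to 26.5 CPM in YUMMER1.7 with IFNb, against 24.3 to 28.5 CPM without, mostly Cdh5.

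Set directly against IFNb, IFNg gave higher levels of all 10 genes in 7 lines. The share of all genes called higher was 26.0% in B16.1, 2.51% in CT26.2, 10.9% in KPC.2, 17.8% in MC38.7, 22.6% in Panc02.3, 5.25% in Renca and 9.09% in YUMMER1.7. In LLC 8 were higher (16.8%), 1 was lower (12.5%) and 1 was not called. On the mean of the 8 lines all 10 were higher (18.0%). Doses were single and in different units, so the contrast compares these conditions and not the potency of the cytokines.

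The gap was smallest for the regulator Irgm1 and largest for Gm4841. Irgm1 averaged 1.68 ± 0.02 on the log2 scale between IFNg and IFNb over the lines, Irgm2 2.08 ± 0.04, Ifi47 2.51 ± 0.03, F830016B08Rik 2.85 ± 0.11 and Tgtp2 3.45 ± 0.06. Igtp averaged 3.49 ± 0.03, Tgtp1 3.71 ± 0.05, Iigp1 3.83 ± 0.04, Gm12250 4.62 ± 0.05 and Gm4841 5.94 ± 0.06. The median was 2.08 over the 3 GMS regulators and 3.71 over the 7 GKS effectors, with Igtp inside the range of the effectors. Gm4841 had 129, 130 and 154 CPM in Renca with IFNg, against 0.576, 0.248 and 0.706 CPM with IFNb. In B16.1 its IFNb level was 0.109% of its IFNg level (9.84 ± 0.20 on the log2 scale, adjusted p = 6.5e-44). Irgm1 at the other end had 301, 297 and 305 CPM in MC38.7 with IFNg, against 215, 240 and 205 CPM with IFNb, so that IFNb gave 73.2% of the IFNg level. Across lines that percentage ran from 15.8 in B16.1 to 76.6 in LLC for Irgm1, from 2.06 to 41.4 for Igtp, from 1.32 to 52.4 for Iigp1 and from 0.304 to 79.7 for Gm12250.

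LLC was the line in which the cytokines came closest. Ifi47 had 153 and 152 CPM with IFNg, against 145, 143 and 146 CPM with IFNb (0.08 ± 0.08, adjusted p = 0.57). Gm12250 had 85.76 and 86.03 CPM with IFNg, against 70.8, 67.2 and 67.5 CPM with IFNb (0.33 ± 0.10, adjusted p = 0.0072), a call that did not pass without replicate 1 (0.079) or replicate 3 (0.1). F830016B08Rik ran the other way. It had 6.999 and 6.31 CPM with IFNg, against 16.8, 16.0 and 14.6 CPM with IFNb, and was lower with IFNg by 1.24 ± 0.20 on the log2 scale (edgeR adjusted p = 1.1e-06). Its groups do not overlap, and its IFNb level was 237% of its IFNg level, whereas in B16.1 it was 0.819%. Gm4841 in LLC still favoured IFNg, with 38.0 and 36.9 CPM against 6.64, 7.81 and 8.52 CPM with IFNb (2.27 ± 0.13). The median log2 difference of the members between IFNg and IFNb was 0.74 in LLC and 6.47 in B16.1. F tests found the gap unequal between lines for all 10 genes (70.1% of all genes).

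Levels per length of transcript gave the make-up of the family, as CPM per kb of the longest annotated transcript. With IFNg, Igtp ranked first in CT26.2, LLC, MC38.7, Panc02.3 and YUMMER1.7, and Tgtp1 ranked first in B16.1, KPC.2 and Renca. In B16.1 Tgtp1 stood at 1687 CPM per kb, Igtp at 1398 and Irgm1 at 532.8. In Renca the libraries of Tgtp1 and Igtp overlapped. Igtp made up 20.1% to 34.9% of the summed level per kb with IFNg, Tgtp1 13.1% to 30.5% and Irgm1 7.15% to 16.0%, and F830016B08Rik was last in all 8 lines. With IFNb, Irgm1 ranked first in 7 lines and Igtp in MC38.7, but the libraries of the first and second gene overlapped in KPC.2, LLC, MC38.7 and Renca. Irgm1 made up 20.4% to 47.6% with IFNb, and Gm4841 was last in all 8 lines. Without cytokine Irgm1 made up 19.6% to 66.6%. Neighbours in the order had overlapping libraries in 12 of 72 pairs with IFNg, 24 with IFNb and 40 without cytokine. The order depends on the length used. With the shortest annotated transcript, the IFNg level over the lines was 4310 CPM per kb for Tgtp1 in place of 569.5, and 700.8 for Igtp in place of 612.4.

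The share of Tgtp2 within the Tgtp1 and Tgtp2 pair varied with the condition in several lines. In YUMMER1.7 it was 17.6% of the pair's counts with IFNg (95% exact binomial interval 17.2% to 17.9%), 41.5% with IFNb (40.1% to 42.9%) and 49.3% without cytokine (48.1% to 50.5%). The intervals cover counting error only, and single libraries ran from 17.2% to 17.7% with IFNg, 39.4% to 43.1% with IFNb and 44.9% to 53.9% without cytokine. In the other lines the share with IFNg was between 12.4% (Renca) and 19.9% (MC38.7). With IFNb it was lowest in KPC.2, at 5.08%, among those 7 lines, and in Panc02.3 single libraries ran from 8.94% to 35.2%. In Renca it was 12.4% with IFNg (libraries 12.2% to 13.6%), 18.3% with IFNb (17.0% to 21.1%) and 29.5% without cytokine (2 libraries). In CT26.2 it was 16.9% with IFNg (16.4% to 17.7%), 12.2% with IFNb (4.14% to 15.6%) and 26.5% without cytokine (22.6% to 30.9%). Since most of the pair's words are shared, the share rests on the reads that tell the copies apart. Counting the pair as 1 gene moved no count of called members by over 1.5 times.

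**Figure D5:**
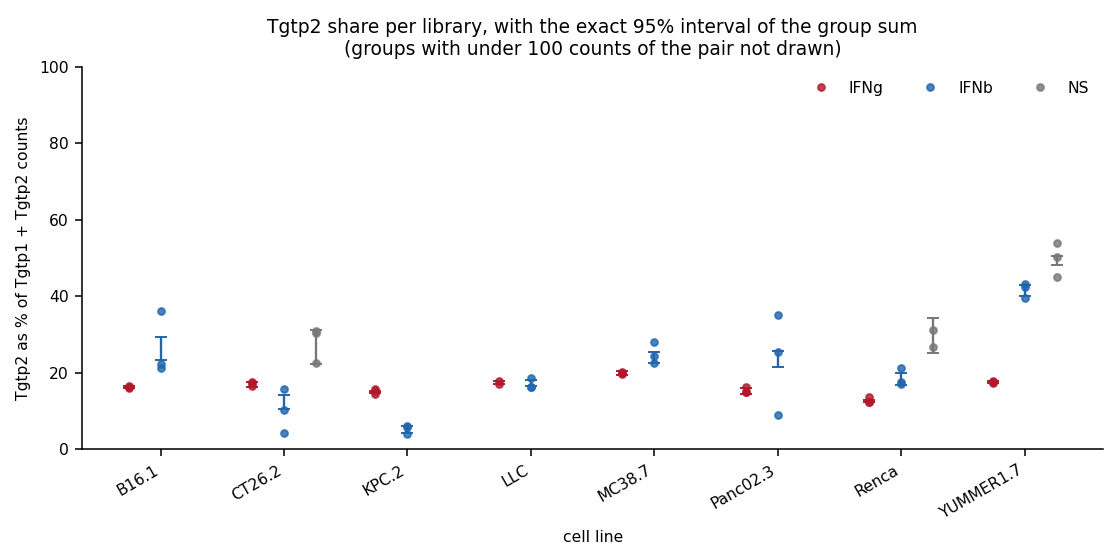
Share of Tgtp2 in the counts of Tgtp1 and Tgtp2 together, in percent, by line with IFNg, IFNb and NS from left to right. Points are libraries and bars are 95% exact binomial intervals of the group sum, for counting error only, and groups with few counts of the pair are not drawn. In YUMMER1.7 the share is 17.6% with IFNg, 41.5% with IFNb and 49.3% without cytokine.

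Genes around the family were counted from lists. Of 7 further IRG genes 6 were tested, and with IFNg on the mean of lines 5 rose and 1 fell (18.3% of all genes higher and 23.7% lower). Gm4951 rose by 6.98, Gm12185 by 6.86 and 9930111J21Rik1 by 2.82 on the log2 scale, with groups near 0 in some lines. Single values of 9930111J21Rik1 are uncertain, since only 11.2% of its 31-base words were unique and 85.6% were shared with 9930111J21Rik2. Those of Gm12185 are so to a smaller extent, with 71.3% unique words and an overlap with Tgtp1 on the same strand. In LLC, 4 of the 6 were lower with IFNg than with IFNb and 2 were higher (12.5% of all genes lower and 16.8% higher). Gm4951 was lower by 1.07 ± 0.10 (adjusted p = 1.4e-12) and 9930111J21Rik1 by 2.08 ± 0.36 (adjusted p = 4.9e-06), while Gm12185 was higher by 1.67 ± 0.11. The other genes, named after their values were seen, were Gm5431 and 9930111J21Rik2 (lower) and Irgq (higher). Of 9 genes of interferon signalling, 6 rose and 2 fell with IFNg on the mean of lines. Irf1, a transcription factor induced through GAS elements, rose by 3.80 ± 0.03 and Stat2, which acts at ISREs, by 2.81 ± 0.04. With IFNb 5 of 9 rose and none fell (13.0% of all genes higher and 17.3% lower), Stat2 by 2.12 and Irf1 by 0.76.

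Autophagy-related genes that help load IRG proteins onto vacuoles were called in both directions with IFNg. Of 10 such genes, 4 rose and 3 fell with IFNg on the mean of lines, with Map1lc3a at -0.27 and Gabarap at -0.21, and none rose and 5 fell with IFNb. Of all genes, 18.3% rose and 23.7% fell with IFNg on that mean, and 13.0% rose and 17.3% fell with IFNb. Of 10 genes for ubiquitin conjugation and adaptors at vacuoles, 9 were tested and 8 rose with IFNg, led by Ube2l6 (3.24), an ISG15 conjugating enzyme, and Trim21 (2.39), beside the same 18.3% of all genes. With IFNb 6 rose and 1 fell (13.0% and 17.3% of all genes). Traf6 did not pass with IFNg (-0.05, adjusted p = 0.31).

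The genes whose log2 levels over the 24 groups ran most like the mean of the family were Gbp2 (Pearson r 0.968), Gm4951 (0.965), Gbp4 (0.962), Gbp6 (0.948), Gbp7 (0.946) and Dtx3l (0.931). The groups share their lines and cytokines, so these values describe likeness only. Within the family, each member's r with the mean of the other 9 ran from 0.892 for Gm4841 to 0.984 for Iigp1, Tgtp1 and Ifi47.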

How the data were processed

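Values are estimated counts, which the authors deposited for 35197 genes in 70 libraries as whole numbers without scaling. The submitters' processing notes name Trimmomatic 0.36, kallisto and the build mm10/GRCm38. The way transcripts became genes is not given in the sources used here. Libraries came from a directional kit, per the labels' protocols.

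The counts were modelled with edgeR 4.0.16 in R 4.3.3 (quasi-likelihood test, TMM scaling, filterByExpr, 1 coefficient for each of 24 groups, prior df 9.22), with Benjamini-Hochberg adjustment over 16147 genes and a threshold of 0.05. Contrasts were IFNg or IFNb against NS and IFNg against IFNb, within lines, as the equally weighted mean of 8 lines, as F tests between lines and as departures of a line from the other 7. The standard error (SE) is the log2 difference divided by the square root of F. Fitted differences against groups of 3 or fewer counts depend on the prior count, so for those genes bounds or ratios are given, and departures of all members other than Igtp, Irgm1, Irgm2 and Ifi47 rest partly on such groups. Replicates differed beyond sampling noise (chi-square per gene 1.54 to 17), so all were kept. The steps were tested on simulated data.

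Alternatives were DESeq2 1.42.0, its size factors, limma-voom (limma 3.58.1), no filter, lines fitted alone, a replicate block, each replicate left out, KPC.2 with IFNb without replicate 3, and Tgtp1 and Tgtp2 summed. The members and lists were chosen with earlier results of these data known. Besides all members, the rule named, per list, at most 3 genes by size of the mean IFNg change and at most 1 uncalled gene, and the 6 genes most alike. The result of 1 gene that the rule names is not reported here. Promoters are from RefSeq (GRCm38.p6), positions and lengths from GENCODE on GRCm38.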

Additional observations from a re-analysis of the deposited data

Results flagged for a closer look

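For each of the 10 genes and each of the 3 contrasts, an F test in edgeR asked whether the difference was equal in the 8 lines, and all 30 tests passed with adjustment over all genes. Between 48.2% and 70.1% of all genes passed the same tests, so passing is common in these data. For IFNg against NS the adjusted p was 5.7e-49 for Igtp, 1.8e-46 for Irgm1, 1.2e-42 for Irgm2, 9.0e-42 for Iigp1, 6.8e-35 for Tgtp1, 3.4e-31 for Tgtp2, 1.3e-40 for Ifi47, 3.5e-24 for Gm4841, 5.8e-29 for Gm12250 and 1.7e-22 for F830016B08Rik. The difference for Igtp was 12.78 in B16.1 and 3.25 in YUMMER1.7. For IFNb against NS it was 1.0e-49 for Igtp, 9.2e-49 for Irgm1, 4.9e-43 for Irgm2, 7.1e-42 for Iigp1, 1.2e-34 for Tgtp1, 2.2e-25 for Tgtp2, 5.1e-41 for Ifi47, 5.7e-17 for Gm4841, 6.2e-31 for Gm12250 and 4.6e-16 for F830016B08Rik. The difference for Ifi47 was 7.54 in LLC and -0.37 in YUMMER1.7. For IFNg against IFNb it was 2.0e-42 for Igtp, 1.2e-33 for Irgm1, 1.0e-26 for Irgm2, 9.4e-38 for Iigp1, 1.4e-33 for Tgtp1, 1.7e-27 for Tgtp2, 1.5e-38 for Ifi47, 3.0e-28 for Gm4841, 1.9e-39 for Gm12250 and 3.7e-27 for F830016B08Rik. The difference for F830016B08Rik was 6.98 in B16.1 and -1.24 in LLC. Differences against NS of genes with near-0 groups depend on the prior count.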

How the results depend on the processing

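Over the 270 fold changes of the members, refitted under 11 alternatives where the alternative gives a value (lines fitted alone give no mean over lines, and the summed pair no value for either copy), the sign changed in 3 cases, a call was lost in 17 and gained in 7. All 3 sign changes were in differences without a call. For IFNb with a replicate left out, Gm12250 ran from -0.39 to 0.25 in CT26.2 (-0.10 with all) and from -0.084 to 0.23 in YUMMER1.7 (0.024 with all), and F830016B08Rik ran from -0.32 to 0.14 in YUMMER1.7 (-0.086 with all). For IFNb, the count of members departing from the other lines was 9 with DESeq2 and with limma-voom in MC38.7 (5 in edgeR) and 5 with DESeq2 in Panc02.3 (3 in edgeR). For IFNg it was 7 with either tool in KPC.2 (3 in edgeR) and 4 with either in MC38.7 (2 in edgeR). Some members without a call in edgeR had an SE that was missing or far larger than the fitted departure. In MC38.7 with IFNb these included Iigp1, Tgtp1, Tgtp2 and Gm12250 (5.28, 4.33, 6.37 and 4.10). In KPC.2 with IFNg they included Tgtp1, Tgtp2 and Gm12250 (2.33, 3.865 and 3.45). Other uncalled members had smaller SEs, and the cause of the difference between tools was not tested. With a replicate left out, members raised by IFNb in CT26.2 numbered 4 to 8, and IFNb departures numbered 1 to 2 in KPC.2 (3 with all) and 4 to 6 in LLC (7 with all). Same-numbered replicates did not deviate together (68 pairs, median r 0.00047, 7 over 0.1), so the numbers were not taken as pairing. With the replicate block, 7 members rose with IFNb in CT26.2, and no count of members moved by over 1.5 times. Without TMM, the summed IRG level of 8 groups moved by more than 1 SD, in YUMMER1.7 with IFNg to 7223 CPM from the TMM value of 7995. Genes near 0 counts in NS are limited by depth.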
